A study of Homo sapiens with 15 samples.

Results

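HepG2 is an established human liver cancer cell line. RNA was sequenced from these cells after lentivirus had brought in short hairpin RNAs. The groups are a control hairpin that silences nothing (NS, 4 libraries), BRG1 alone targeted (BRG1, 4 libraries), BRM alone targeted (BRM, 3 libraries) and BRG1 and BRM targeted together (Double, 4 libraries). All groups, NS included, were infected with polybrene present, put through puromycin selection and collected on day 5 after transduction, and the cells were from a single line. BRG1 (gene SMARCA4) and BRM (gene SMARCA2) are the alternative ATPases of the SWI/SNF chromatin remodelling complexes. The genes described here are 10 genes of eicosanoid release, synthesis and breakdown, out of 35012 in the deposited count matrix. They were taken from that matrix by symbol, with their levels in the 4 groups and their departure from additivity in view, so their group values below are a description. Where a member is said to be called, this gives the side of a threshold on which its value lies and is no independent test. The members are PLA2G2A, PLA2G4A, PTGS1, PTGS2, PTGES, PTGES2, PTGES3, PTGR1, HPGD and ALOXE3. Of the 10, 7 passed a filter on low counts and entered the fit over 14621 genes, and 3 (PLA2G4A, PTGS1 and PTGS2) did not. PTGES, HPGD and ALOXE3 passed through the groups in which they were high.

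Eicosanoids are signalling lipids made from arachidonate, a fatty acid held in membrane phospholipids. Phospholipases A2 release it, the cyclooxygenases PTGS1 and PTGS2 turn it into prostaglandin H2, and the prostaglandin E synthases PTGES, PTGES2 and PTGES3 turn that into prostaglandin E2. HPGD oxidizes the 15-hydroxyl group of prostaglandins and PTGR1 reduces the products, which ends their activity, while lipoxygenases act on arachidonate in a separate branch. ALOXE3 belongs to the lipoxygenase family but is known mainly as a hydroperoxide isomerase of the skin barrier. In liver these pathways are known for their part in inflammation and lipid handling.

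Total counts ran from 11500149 to 27187991 per library. Whether replicates were separate cultures is not stated in the labels, so the p-values reflect only how far these samples differ from each other, which may be technical spread. SMARCA4 averaged 307 ± 6.99 (CPM, that is counts relative to the TMM-scaled library total; SD, n = 4) in NS and 27.8 ± 2.32 (n = 4) in BRG1, 346 ± 86.7 (n = 3) in BRM and 46.2 ± 6.09 (n = 4) in Double libraries. SMARCA2 averaged 39.2 ± 4.05, 25.8 ± 3.64, 4.38 ± 2.22 and 2.57 ± 0.300 CPM in the same order. Libraries numbered 1 and 2 stood apart from libraries 3 and 4: mitochondrial genes took 4.97 to 8.33% of counts in the first set and 1.33 to 3.55% in the second, and libraries of a group differed far more between sets (98.9 to 226 chi-square per degree of freedom) than within them (5.21 to 66.3). The BRM group has 1 library in the second set. Changes are therefore also given within each set. The 6 hepatocyte markers (ALB, AFP, APOA1, TTR, SERPINA1 and FGB) were all detected in every group, and their summed level ran from 15520 to 22329 CPM in NS, 3842 to 12246 in BRG1, 36452 to 37651 in BRM and 7126 to 13716 in Double libraries. Of 5 blood and macrophage markers 4 passed the filter, HBB had no count in 3 groups, PTPRC averaged at most 0.462 CPM, and LYZ made most of the summed level, which was 483 to 1697, 688 to 1407, 137 to 249 and 329 to 446 CPM in that order. CD68 went the other way from this sum, rising by 0.91 with BRM and 0.90 with both hairpins (edgeR adjusted p = 0.0302 and 0.0159), and CD14 was not called in any comparison with NS. Of 4 fibroblast markers 2 passed the filter, with COL1A2 and DCN at a mean of 0.242 CPM or less, and the sum was 31.6 to 71.8, 56.8 to 245, 13.6 to 26.0 and 20.7 to 39.6 CPM. All 3 endothelial markers passed, with a sum of 3.55 to 9.96 CPM over the groups. These markers moved between groups along with the genes below, and their part in the results was not tested. In bulk RNA, fewer cells with a transcript and less of it per cell cannot be told apart.

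The 3 members whose group means spanned the widest range at a mean of at least 1 CPM were PLA2G2A, PTGES and ALOXE3, and their promoters are shown because the groups differed most for them. Each sequence is the RefSeq window on GRCh38.p14 from 250 bases before to 50 bases after the annotated start, 5′ to 3′ on the gene's strand (minus for all 3), and all 10 members matched an entry. They lie at chr1:19979610-19979909 for PLA2G2A, chr9:129752993-129753292 for PTGES and chr17:8118465-8118764 for ALOXE3. Capitals mark matches to the motifs named after the sequences.

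PLA2G2A: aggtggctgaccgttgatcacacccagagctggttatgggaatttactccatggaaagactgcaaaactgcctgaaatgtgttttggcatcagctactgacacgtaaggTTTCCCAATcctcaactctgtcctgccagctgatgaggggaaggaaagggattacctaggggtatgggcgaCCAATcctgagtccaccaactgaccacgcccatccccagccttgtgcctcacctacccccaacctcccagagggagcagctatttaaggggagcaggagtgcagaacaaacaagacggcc
PTGES: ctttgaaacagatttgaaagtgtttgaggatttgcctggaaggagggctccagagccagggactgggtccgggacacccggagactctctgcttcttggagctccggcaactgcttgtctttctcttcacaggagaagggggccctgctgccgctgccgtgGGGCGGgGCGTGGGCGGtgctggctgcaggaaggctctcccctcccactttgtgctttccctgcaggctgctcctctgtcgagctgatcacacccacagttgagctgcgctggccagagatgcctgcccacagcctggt
ALOXE3: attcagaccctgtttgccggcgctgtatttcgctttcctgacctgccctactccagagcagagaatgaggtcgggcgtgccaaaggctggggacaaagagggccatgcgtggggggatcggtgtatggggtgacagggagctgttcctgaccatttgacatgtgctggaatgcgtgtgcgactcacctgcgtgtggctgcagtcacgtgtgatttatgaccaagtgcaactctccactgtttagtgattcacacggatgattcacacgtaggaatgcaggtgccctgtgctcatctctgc

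The letters searched on both strands were those of the TATA box, written TATAAA, and of the AP-1 site, written TGAGTCA. The CRE was written TGACGTCA and the GC box GGGCGG, and CCAAT was searched as such. The EGR site was written GCGNGGGCG and the C/EBP site TTNNGNAA. The PLA2G2A window held CCAAT at -137 and -70 from the start and a C/EBP match at -141 that overlaps the first CCAAT. The PTGES window held GC boxes at -89 and -78, with an EGR match at -82 that overlaps the second. The ALOXE3 window held no match to these letters. Among 35116 RefSeq promoter windows of the same length, 34.6% held CCAAT, 36.8% the C/EBP letters, 45.0% a GC box, 9.43% the EGR letters, 11.5% a TATA box, 4.95% AP-1 and 1.85% CRE. A match describes letters in the window and is no evidence of binding, and no match says only that these letters are absent from it. The RefSeq start lies 84, 5 and 1 bases from the start of the principal GENCODE v29 transcript of PLA2G2A, PTGES and ALOXE3.

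PLA2G2A is a secreted phospholipase A2 that releases fatty acids from membrane phospholipids (chromosome 1, 19975431 to 19980416, minus strand, GRCh38). Its level was 45.8, 38.3, 15.5 and 18.9 CPM in NS libraries 1 to 4. It was 3.20, 2.79, 4.57 and 3.69 CPM in BRG1 libraries. In BRM libraries it was 0.322, 0.550 and 0.507 CPM, and in Double libraries 0.437, 0.270, 0.702 and 0.744 CPM. Every knockdown library lay below every NS library, BRG1 libraries were all above BRM and Double libraries, and the BRM and Double ranges overlapped. The log2 change against NS was -3.05 ± 0.36 (SE) with BRG1, -5.95 ± 0.49 with BRM and -5.73 ± 0.42 with both hairpins, and all 3 were called, which here means an adjusted p under 0.05 in edgeR's quasi-likelihood fit over all 14621 genes. Within libraries 1 and 2 the changes were -3.81, -6.50 and -6.84, and within libraries 3 and 4 they were -2.06, -5.07 and -4.57, so the fall was seen in each set and was smaller in the second for each hairpin. Double libraries differed from BRG1 libraries by -2.68 ± 0.40 and from BRM libraries by 0.22 ± 0.48 (95% interval -0.81 to 1.26, not called).

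The second phospholipase A2 of the list, PLA2G4A, is the cytosolic enzyme regarded as the main source of arachidonate for eicosanoids (chromosome 1, 186828953 to 186988981, plus strand). It had 3 counts in all 15 libraries, 2 in BRG1 library 2 and 1 in Double library 1. In NS it had no count, which allows a level of up to 0.0458 CPM at a floor of 3 counts over the group. A change in PLA2G4A was not detectable at this depth.

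The cyclooxygenases were near the limit of detection. PTGS2, the inducible enzyme (chromosome 1, 186671791 to 186680427, minus strand, 148.5 kb from PLA2G4A), had 1 count in the whole study, in BRG1 library 2. PTGS1, the constitutive enzyme (chromosome 9, 122370530 to 122395703, plus strand), had 5, 3, 1 and 2 counts in NS libraries and 1, 1, 0 and 5 in BRG1 libraries. It had 2, 13 and 26 counts in BRM libraries and 1, 0, 1 and 0 in Double libraries. The BRM counts were thus the highest of the 4 groups but ranged widely between its libraries, and in CPM (0.161, 0.650 and 1.2) they overlapped the NS range of 0.0922 to 0.243. The ratio of Double to BRM was 0.0334 (exact binomial 95% interval 0.00391 to 0.128) and that of Double to NS was 0.150 (0.0162 to 0.689). These intervals use counts summed over each group and reflect counting error alone, without the spread between libraries. Reads here also carry no molecular identifiers, so several may come from 1 molecule and the counting error itself may be larger.

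PTGES, the inducible membrane-bound prostaglandin E synthase (chromosome 9, 129738331 to 129753047, minus strand), was low in NS, at 0.340, 0.320, 0.277 and 0.0465 CPM. It was 7.06, 4.91, 3.65 and 3.19 CPM in BRG1 libraries. In BRM libraries it was 1.85, 4.25 and 3.18 CPM, and in Double libraries 1.37, 1.35, 3.76 and 2.52 CPM. All knockdown libraries lay above all NS libraries, and the 3 knockdown groups overlapped one another. The log2 change against NS was 4.28 ± 0.55 with BRG1, 3.68 ± 0.56 with BRM and 3.22 ± 0.54 with both, all called, and it rests on 15 counts in the NS group. Within libraries 1 and 2 the changes were 4.15, 3.21 and 2.01, and within libraries 3 and 4 they were 4.67, 4.57 and 4.56. The Double group differed from BRG1 by -1.05 ± 0.44 (not called), with -2.14 in the first set, called there, and -0.11 in the second.

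The other prostaglandin E synthases were far more abundant and differed little between groups. PTGES2, a membrane-associated synthase (chromosome 9, 128120693 to 128128462, minus strand), had 60.6, 64.2, 120 and 107 CPM in NS libraries and 50.2, 45.2, 120 and 127 in BRG1 libraries. It had 41.9, 55.0 and 137 CPM in BRM libraries and 45.0, 41.8, 82.1 and 130 in Double libraries. Levels followed the library set rather than the hairpin, and the groups overlapped in every comparison with NS. The log2 changes were -0.04 ± 0.47, -0.18 ± 0.51 and -0.24 ± 0.47. PTGES3, also known as the Hsp90 co-chaperone p23 (chromosome 12, 56663341 to 56688408, minus strand), had 382, 374, 349 and 357 CPM in NS and 330, 279, 292 and 291 CPM in BRG1 libraries. It had 414, 507 and 351 CPM in BRM and 407, 387, 382 and 319 CPM in Double libraries. All BRG1 libraries were below all NS libraries, and the change of -0.29 ± 0.14 was not called, although it was with the library set as a covariate (-0.29) and in DESeq2 (-0.33). The changes with BRM and Double were 0.21 ± 0.15 and 0.03 ± 0.14. Pseudogenes of PTGES3 in the matrix held 24 counts or fewer each over all libraries.

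On the breakdown side, HPGD, the 15-hydroxyprostaglandin dehydrogenase (chromosome 4, 174490177 to 174523154, minus strand), was high in a single group. Its BRM libraries had 1.21, 1.70 and 0.922 CPM. NS libraries had 0.146, 0.160, 0.0922 and 0.139 CPM, BRG1 libraries 0, 0, 0 and 0.147, and Double libraries 0.0547, 0.0674, 0.0351 and 0.114. All BRM libraries lay above every other library, and the remaining 3 groups overlapped. The change with BRM was 3.17 ± 0.68 (3.22 within libraries 1 and 2, 2.85 within libraries 3 and 4), on 9 counts in NS and 69 in BRM. Double libraries differed from BRM libraries by -4.17 ± 0.72 and from NS by -1.0 ± 0.82 (95% interval -2.74 to 0.74, not called). BRG1 libraries differed from NS by -1.79 ± 0.87 (not called), on 3 counts, all in BRG1 library 4, against 9. The ratio of these counts was 0.248 (exact binomial 95% interval 0.0432 to 0.993, for counting error only).

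PTGR1, which reduces the 15-keto products of HPGD and also inactivates leukotriene B4 (chromosome 9, 111549722 to 111599893, minus strand), ran from lowest in BRG1 to highest in BRM libraries. NS libraries had 34.2, 33.8, 12.1 and 10.4 CPM and BRG1 libraries 13.3, 13, 10.8 and 10.2. BRM libraries had 69.3, 78.5 and 44.7 CPM and Double libraries 29.4, 36.3, 29.5 and 25.6. BRM libraries were above all others and Double libraries above all BRG1 libraries, while NS overlapped both BRG1 and Double. The change against NS was -0.94 ± 0.34 with BRG1 (not called), 1.5 ± 0.36 with BRM (called) and 0.42 ± 0.34 with both (not called). The BRG1 change was called with the replicate number as a block (-0.80), with the library set as a covariate (-0.80) and in DESeq2 (-0.97). Within libraries 1 and 2 the changes were -1.37, 1.12 and -0.05, and within libraries 3 and 4 they were -0.09, 2.0 and 1.30. Of the changes not called over all libraries, that of BRG1 was called in the first set and that of Double in the second. Double differed from BRG1 by 1.35 ± 0.34 and from BRM by -1.09 ± 0.36, both called. The BRM call was lost without BRM library 2 (1.29). The call of Double against BRG1 was lost without Double library 2 (1.26), BRG1 library 3 (1.31) or BRG1 library 4 (1.30). The call of Double against BRM was lost in 10 of the 15 fits that each left out 1 library, with values from -1.29 to -0.90 over all 15: those without any BRG1 or Double library and those without BRM library 1 or 2. That call was also lost without the count filter (-1.06). PTGR1 overlaps ZNF483 on the opposite strand, which had 562 counts in all, and the strand setting of the counting is not given in the sources used here.

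ALOXE3 (chromosome 17, 8095900 to 8119047, minus strand) was nearly silent in NS, with 0.0971, 0, 0.277 and 0.0929 CPM, and in BRM libraries, with 0, 0.150 and 0.231 CPM. BRG1 libraries had 4.73, 3.21, 5.57 and 4.27 CPM and Double libraries 2.51, 2.70, 4.57 and 4.58 CPM. The libraries with the BRG1 hairpin thus all lay above the libraries without it, and the BRG1 and Double ranges overlapped. The log2 change was 5.27 ± 0.60 with BRG1 and 4.96 ± 0.60 with both, called, against 0.35 ± 0.76 with BRM (95% interval -1.28 to 1.99, not called), on 7 counts in NS. Within libraries 1 and 2 the changes were 5.91, 5.30 and 0.56, in the order BRG1, Double and BRM, and within libraries 3 and 4 they were 4.90, 4.79 and 0.52. Double differed from BRM by 4.61 ± 0.64 and from BRG1 by -0.31 ± 0.44 (95% interval -1.24 to 0.63, not called).

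**Figure D1:**
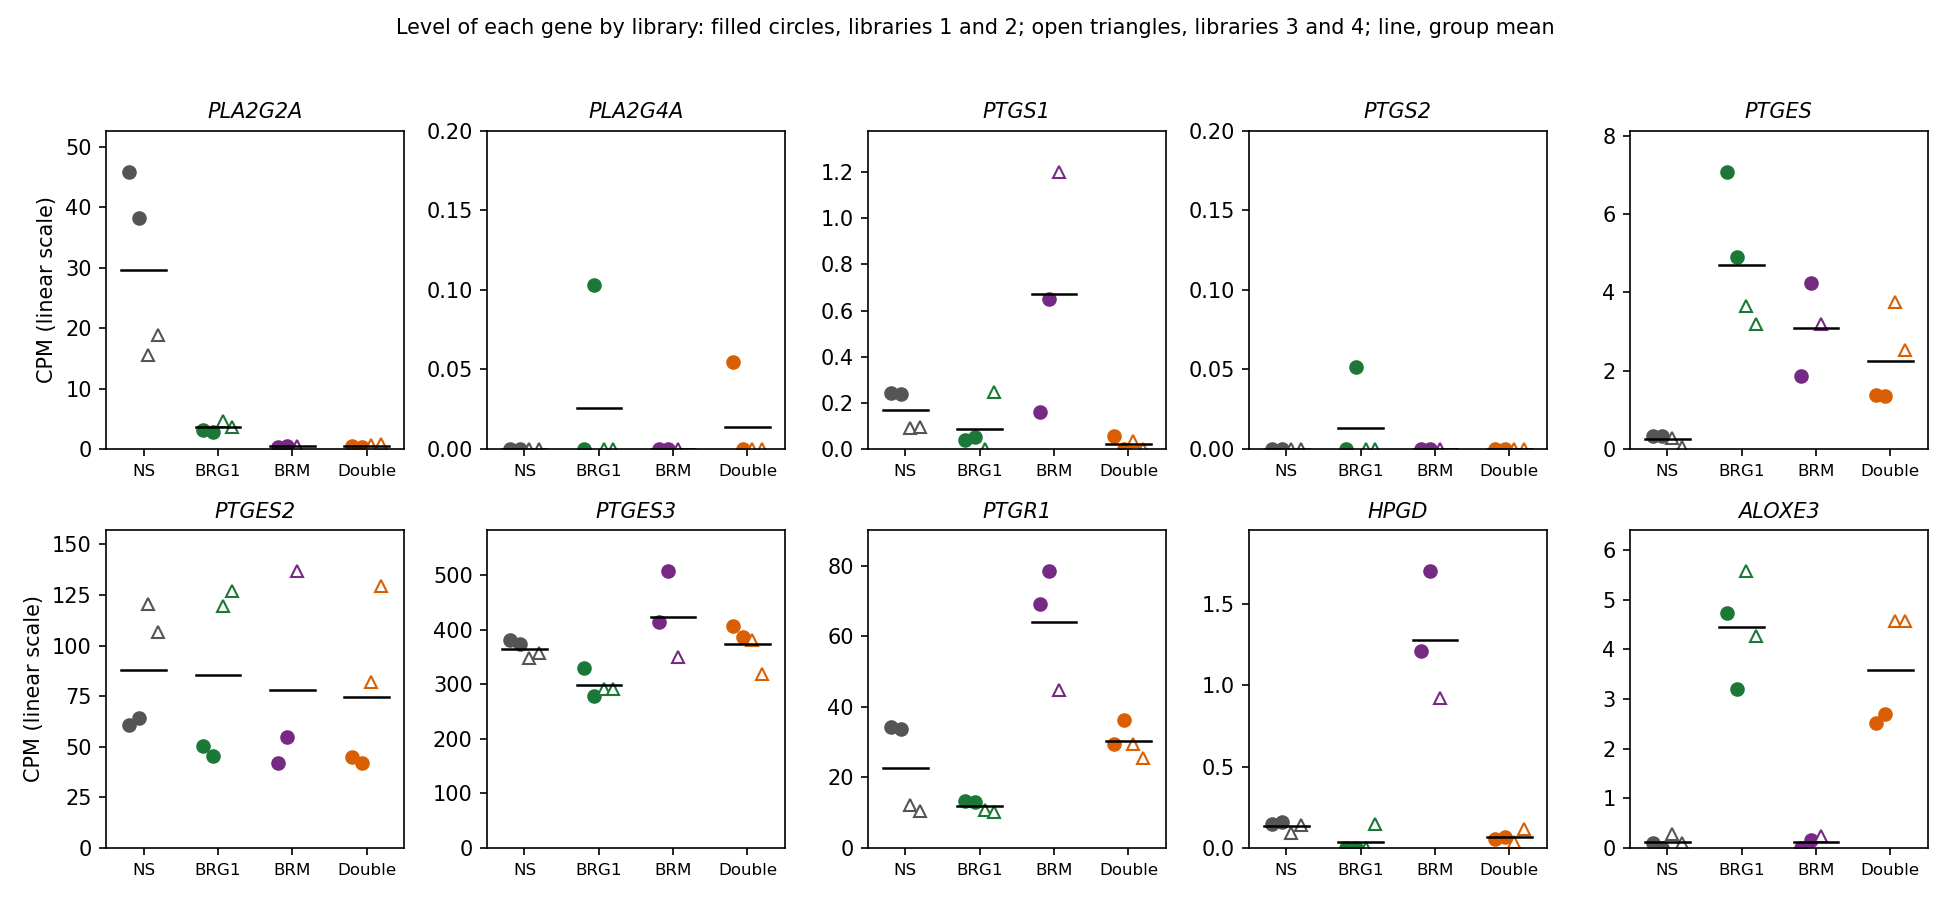
CPM of each of the 10 genes in every library (y axis, linear scale, own range per gene) by group (x axis), with filled circles for libraries 1 and 2, open triangles for libraries 3 and 4 and a line at the group mean. PLA2G2A is highest in NS (15.5 to 45.8 CPM), HPGD in BRM (0.922 to 1.70 CPM), ALOXE3 in BRG1 and Double (2.51 to 5.57 CPM), and PTGES2 separates by library set.

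Of the 7 members tested, 3 were called against NS with BRG1 (PTGES and ALOXE3 up, PLA2G2A down), beside 22.5% of all genes tested. With BRM 4 were called (PTGES, PTGR1 and HPGD up, PLA2G2A down), beside 13.9% of all genes, and with both hairpins 3 (PTGES and ALOXE3 up, PLA2G2A down), beside 21.6%. Double against BRG1 had 2 called members (PTGR1 up, PLA2G2A down), beside 10.8%, and Double against BRM had 3 (ALOXE3 up, HPGD and PTGR1 down), beside 19.1%. A fit that took the replicate number as a block called 5318 genes with BRG1 and 5200 with both hairpins, against 3284 and 3165 without the block. The members were chosen with these contrasts known, so nothing is read from the counts. The comparisons against NS share the NS libraries. The authors' deposited table, whose sign was read from SMARCA4 and SMARCA2 because it names no reference group, gave PTGR1 a log2 change of -0.97 and PTGES3 one of -0.33 with BRG1, with adjusted p under 0.05 there for both, where the edgeR fit called neither. DESeq2 run on the deposited counts called both (-0.97 and -0.33).

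Levels can be set side by side between genes per length. Divided by the length of the principal GENCODE v29 transcript, the NS means were 190 ± 7.89 CPM per kb (SD, n = 4) for PTGES3, 37.8 ± 12.9 for PTGES2, 30.4 ± 15.1 for PLA2G2A and 16.1 ± 9.34 for PTGR1. PTGES2 and PLA2G2A did not differ beyond their spread, nor did PLA2G2A and PTGR1. The other 6 members were at 0.139 CPM per kb or less. In BRM libraries PTGR1 reached 45.6 ± 12.4 CPM per kb (n = 3), and the order of PLA2G2A (0.472 ± 0.124) and PTGES (1.75 ± 0.677) was the reverse of that in NS.

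Additivity on the log2 scale means that the change with both hairpins equals the sum of the changes with each alone. Of the 7 members tested, 2 were called as departing from it, PLA2G2A and PTGES, beside 0.499% of all genes tested (73 genes, 15 with a positive and 58 with a negative departure). This contrast was part of how the members were chosen, so nothing is read from that count. Target levels also differed between the groups compared. SMARCA4 averaged 46.2 CPM in Double against 27.8 in BRG1 libraries, and SMARCA2 25.8 CPM in BRG1 against 39.2 in NS libraries. The part of these differences in the departures was not tested. For PLA2G2A the sum of the single changes was -9.01 and the measured change -5.73, a departure of 3.28 ± 0.60. The product of the single folds would put Double libraries at 0.0553 CPM, about 1.09 counts per library, where 0.538 CPM was measured, so the sum lay near the limit of detection. For PTGES the sum was 7.96 and the measured change 3.22, a departure of -4.73 ± 0.72, and the product of the folds would give 59.2 CPM where 2.25 CPM was measured. Both departures had the same sign within libraries 1 and 2 (3.47 for PLA2G2A and -5.34 for PTGES) and within libraries 3 and 4 (2.56 and -4.68). The call for PLA2G2A was lost in 6 of the 15 fits that each left out 1 library (BRG1 1 or 2, BRM 2 or 3, Double 3 or 4), with values from 3.17 to 3.46 in those fits. The departure of ALOXE3 was -0.66 ± 0.89, that of HPGD -2.38 ± 1.35, that of PTGR1 -0.15 ± 0.50, that of PTGES3 0.11 ± 0.21 and that of PTGES2 -0.02 ± 0.69, none of them called. The 95% interval for HPGD ran from -5.27 to 0.52 and that for ALOXE3 from -2.56 to 1.25, so sizeable departures in these genes were within the error.

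**Figure D2:**
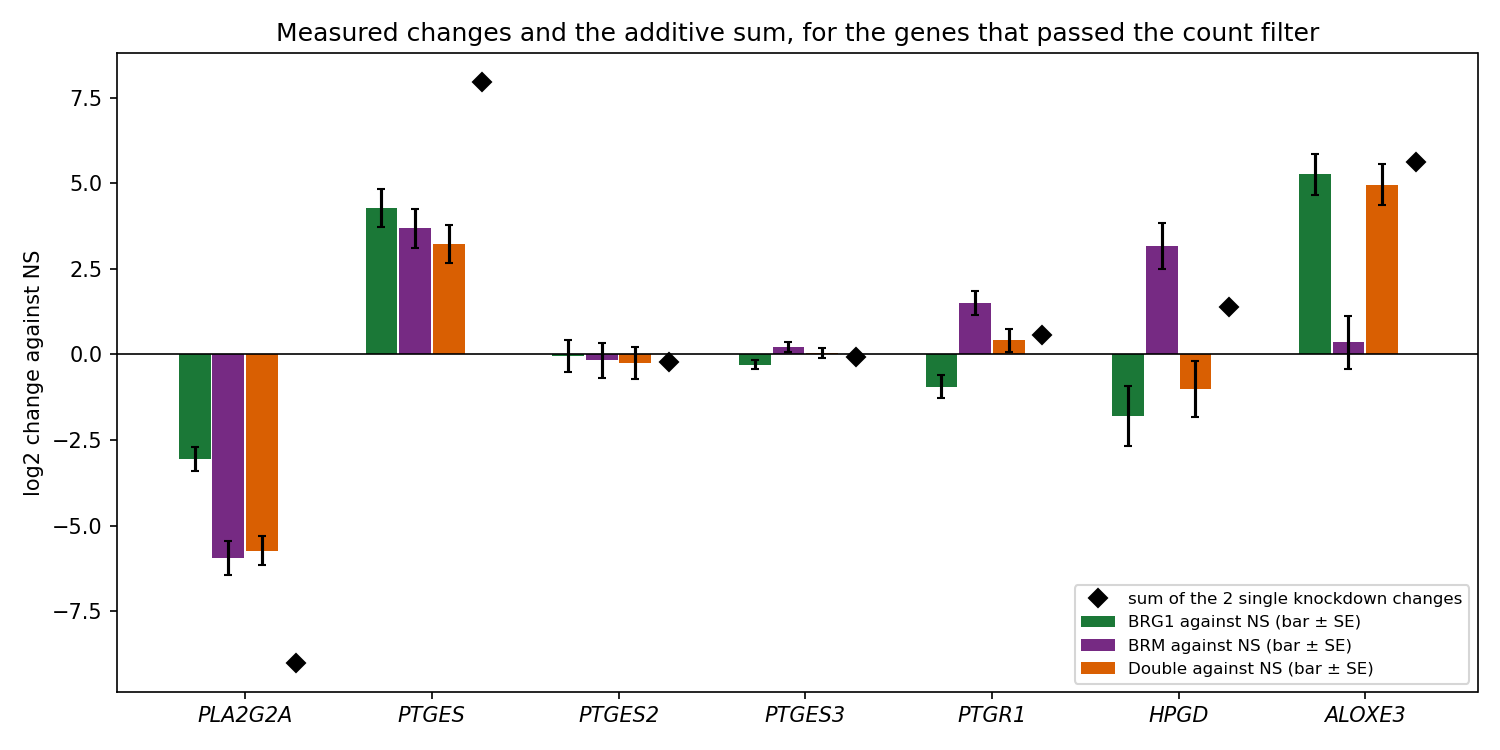
Log2 change against NS (y axis) of the 7 genes that passed the count filter, as bars ± SE for BRG1, BRM and Double, with a diamond at the sum of the changes of the single hairpins. The diamonds of PLA2G2A (-9.01) and PTGES (7.96) lie far beyond the Double bars (-5.73 and 3.22), and those of the other genes lie nearer to them.

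The contrast between library sets played no part in the choice of the members and could be tested. With the group as a term in edgeR's quasi-likelihood test, PTGES2 was higher in libraries 3 and 4 than in 1 and 2 by 1.23 ± 0.11 on the log2 scale (adjusted p = 6.8e-07) and PTGR1 stood at -0.71 ± 0.17 (adjusted p = 0.00196). These were 2 of 7 members, beside 55.6% of all genes tested. ALOXE3 was at 0.67 ± 0.28 (adjusted p = 0.0548 in edgeR), and it was called with RLE factors (0.0461), without the count filter (0.0355), in DESeq2 (0.0284) and in 4 of the 15 edgeR fits that each left out 1 library. In the edgeR fit the other 4 members had adjusted p of 0.1 or above. All second-set libraries of each group lay above its first-set libraries for PTGES2, from 82.1 to 137 CPM against 41.8 to 64.2 CPM over all groups. The difference of the change against NS between the sets was called for 2 of the 7 members with BRG1, beside 2.49% of all genes tested, and for the same 2, PLA2G2A and PTGR1, with both hairpins, beside 3.71%.

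**Figure D3:**
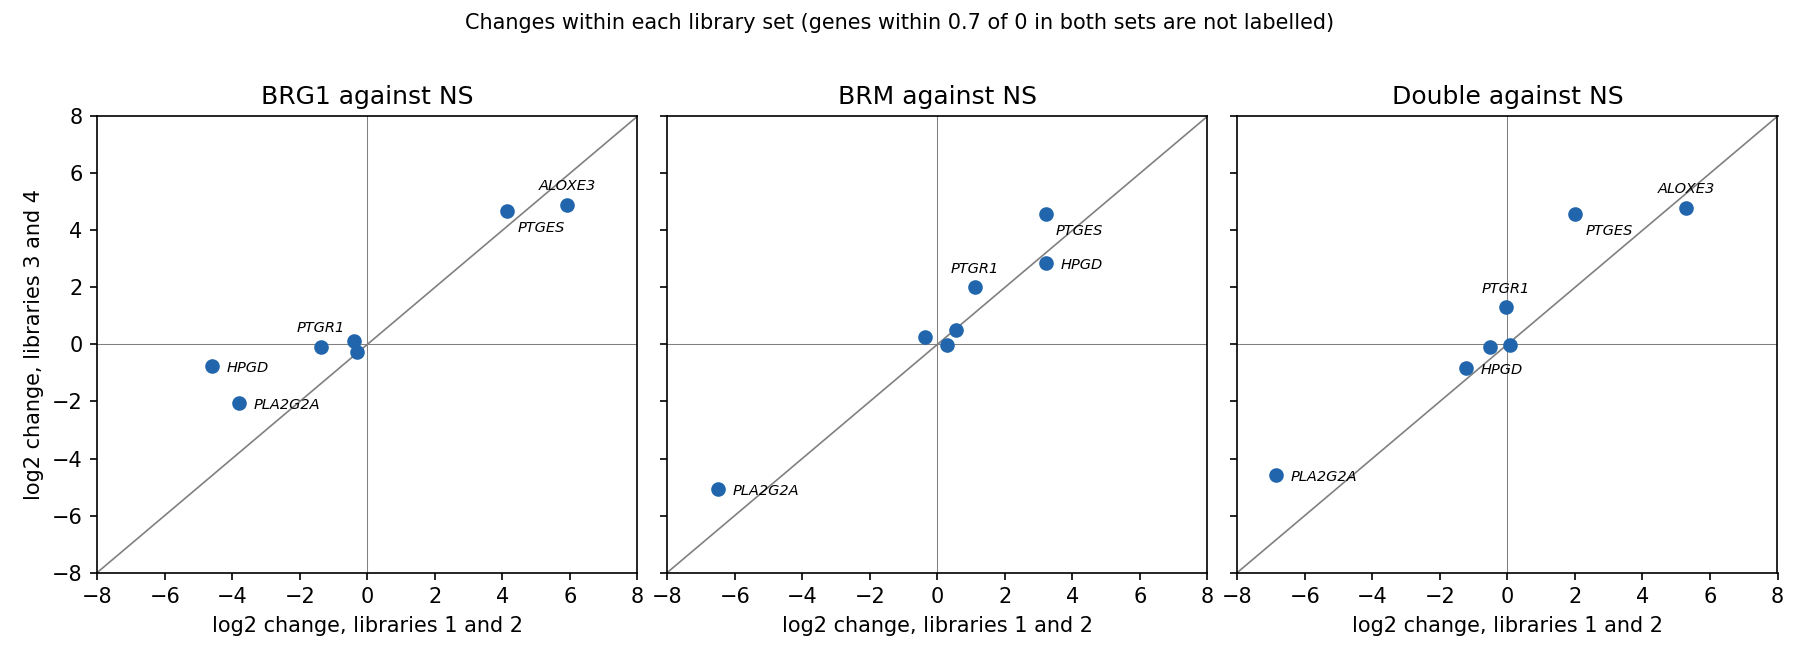
Log2 change against NS within libraries 1 and 2 (x axis) and within libraries 3 and 4 (y axis) for the 7 tested genes, a panel per comparison, with the line of equal change. PLA2G2A lies above the line in all 3 panels (for Double, -6.84 against -4.57), and PTGES does so most for Double (2.01 against 4.56).

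Around the members sit 70 other genes of eicosanoid metabolism, of which 45 passed the filter. With BRG1, 6 of the 45 rose and 12 fell (40%, median log2 change -0.35, beside 22.5% of all genes with a median of 0.02). With BRM, 9 rose and 5 fell (31.1%, median 0.08, beside 13.9% and 0.03). With both hairpins, 5 rose and 8 fell (28.9%, median -0.33, beside 21.6% and 0.02). The replicate number as a block gave 26 calls of the 45 with both hairpins, beside 5200 of all 14621 genes tested. No gene of this list was called for a departure from additivity by edgeR, although 9 (20%) had an unadjusted p under 0.05, beside 11.9% of all genes tested. DESeq2 called 2 of the list, and 465 genes in all.

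Among the other phospholipases A2, 3 of 10 fell with BRG1 (30%, beside 22.5% of all genes tested). With BRM 2 rose and 2 fell (40%, beside 13.9%), and with both 2 rose and 2 fell (40%, beside 21.6%). The pair of group XII enzymes behaved differently from each other. PLA2G12A averaged 18 CPM ± 3.88 (SD, n = 4) in NS and fell in every knockdown, by 1.09, 0.94 and 1.87 on the log2 scale with BRG1, BRM and both (edgeR adjusted p = 0.00209, 0.0166 and 4.61e-05). PLA2G12B fell by 2.16 with BRG1 (adjusted p = 0.000905 in edgeR) and rose by 1.56 ± 0.37 with BRM (0.0128 in edgeR), a call lost without BRM library 2 (1.26). PLA2G4C, a cytosolic relative of PLA2G4A, rose by 1.82 ± 0.34 with BRM and 2.31 ± 0.32 with both (edgeR adjusted p = 0.00239 and 0.000166). PLA2G3 fell by 4.32 with BRG1, on 52 counts in NS of which all but 1 were in libraries 3 and 4, and the change was -0.32 within libraries 1 and 2. PLA2G3 passed the count filter through single libraries of NS and BRM, where it was high, so this call is a description. That call was lost without the count filter (-4.35) and without any of the BRG1 libraries, with values from -4.55 to -3.95.

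Beside the prostaglandin enzymes, the transporter SLCO2A1, which carries prostaglandins into cells where HPGD oxidizes them, had 1, 0, 0 and 1 counts in NS libraries, 9, 13 and 30 in BRM libraries and 2, 0, 1 and 0 in Double libraries. BRM libraries all lay above NS, and the ratio of BRM to NS was 31.5 (exact binomial 95% interval 8.28 to 267, for counting error only). SLCO2A1 passed the count filter through the BRM group, where it was high, so its call with BRM is a description and no independent test. AKR1C3, an aldo-keto reductase with prostaglandin F synthase activity, fell by 1.83 with BRG1 (edgeR adjusted p = 0.0012) and was at 1.16 ± 0.34 with BRM, where the call was lost in 9 of 15 fits without 1 library (0.88 to 1.24: without any Double library, NS 2, 3 or 4, or BRM 2 or 3) and without the count filter (1.13). Its reads can be shared with close relatives, so its value is uncertain. TBXAS1, the thromboxane synthase, fell by 1.87 with both hairpins (edgeR adjusted p = 0.00504), while the efflux pump ABCC4 and the 15-oxoprostaglandin reductase ZADH2 rose by 0.79 and 0.87. Of the 9 listed prostanoid receptors 3 passed the filter. PTGER1, a prostaglandin E2 receptor, rose with BRG1 by 1.94 ± 0.48, at 1.47 CPM ± 0.585 against 0.386 ± 0.131 in NS (SD, n = 4 each). PTGER1 passed the filter through groups with the BRG1 hairpin, where it was high, so its call is a description and no independent test.

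In the leukotriene branch LTA4H, which makes leukotriene B4, fell by 1.07 with BRM and by 1.16 with both (edgeR adjusted p = 0.000144 and 1.5e-05). It stood at 91.0 CPM ± 6.01 in NS, 88.0 ± 2.65 in BRG1, 43.2 ± 5.13 in BRM and 40.7 ± 2.82 in Double libraries. DPEP1, a dipeptidase that cleaves leukotriene D4, fell by 2.69 with BRG1 (edgeR adjusted p = 0.00203). GGT5 rose by 1.45 with BRG1 and fell by 1.27 with BRM. That BRM call was lost without BRM library 1 (-1.02) or 2 (-1.08) and within libraries 3 and 4 (-0.41). Of 9 tested genes of this branch, 1 rose and 3 fell with BRG1 (44.4%, beside 22.5% of all genes). With BRM 2 fell (22.2%, beside 13.9%), and with both 3 fell (33.3%, beside 21.6%). Among the P450 enzymes CYP4F2 and CYP4F3, which hydroxylate arachidonate and leukotriene B4, 3 groups differed from NS for CYP4F2: it fell by 3.26 with BRG1, rose by 1.89 with BRM and fell by 2.14 with both (edgeR adjusted p = 0.000322, 0.0106 and 0.004). CYP4F3 rose by 2.75 ± 0.46 with BRM (edgeR adjusted p = 0.00137), and its fall with BRG1 (by 1.57) was lost without NS library 1 (-1.32) or BRG1 library 1 (-1.51) and within libraries 3 and 4 (-0.49). These enzymes are close paralogs, and how reads were divided between them is uncertain. In the supply of arachidonate, the desaturase FADS1 fell by 1.42 with BRG1 and the elongase ELOVL5 rose by 1.01 with BRM (edgeR adjusted p = 0.00877 and 0.00424). Of the 10 supply genes tested, 2 rose and 2 fell with BRG1 (40%, beside 22.5% of all genes). With BRM 2 rose and 1 fell (30%, beside 13.9%). ELOVL5 also rose by 0.67 with BRG1. That call was lost in 5 of 15 fits without 1 library and within libraries 3 and 4 (0.26). The elongase ELOVL2 fell by 0.54 with BRG1 and by 0.66 with BRM. These calls were lost in 6 and 5 of the 15 fits and without the count filter. The summed hepatocyte markers given above were lower with BRG1 and higher with BRM, and their part in the changes of this paragraph was not tested. The single markers did not all follow the sum: with BRG1 ALB, AFP, FGB and TTR fell and APOA1 and SERPINA1 were not called. With BRM FGB rose by 2.87 and TTR fell by 1.55 (edgeR adjusted p = 0.0081 and 0.000534), and the other 4 were not called.

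**Figure D4:**
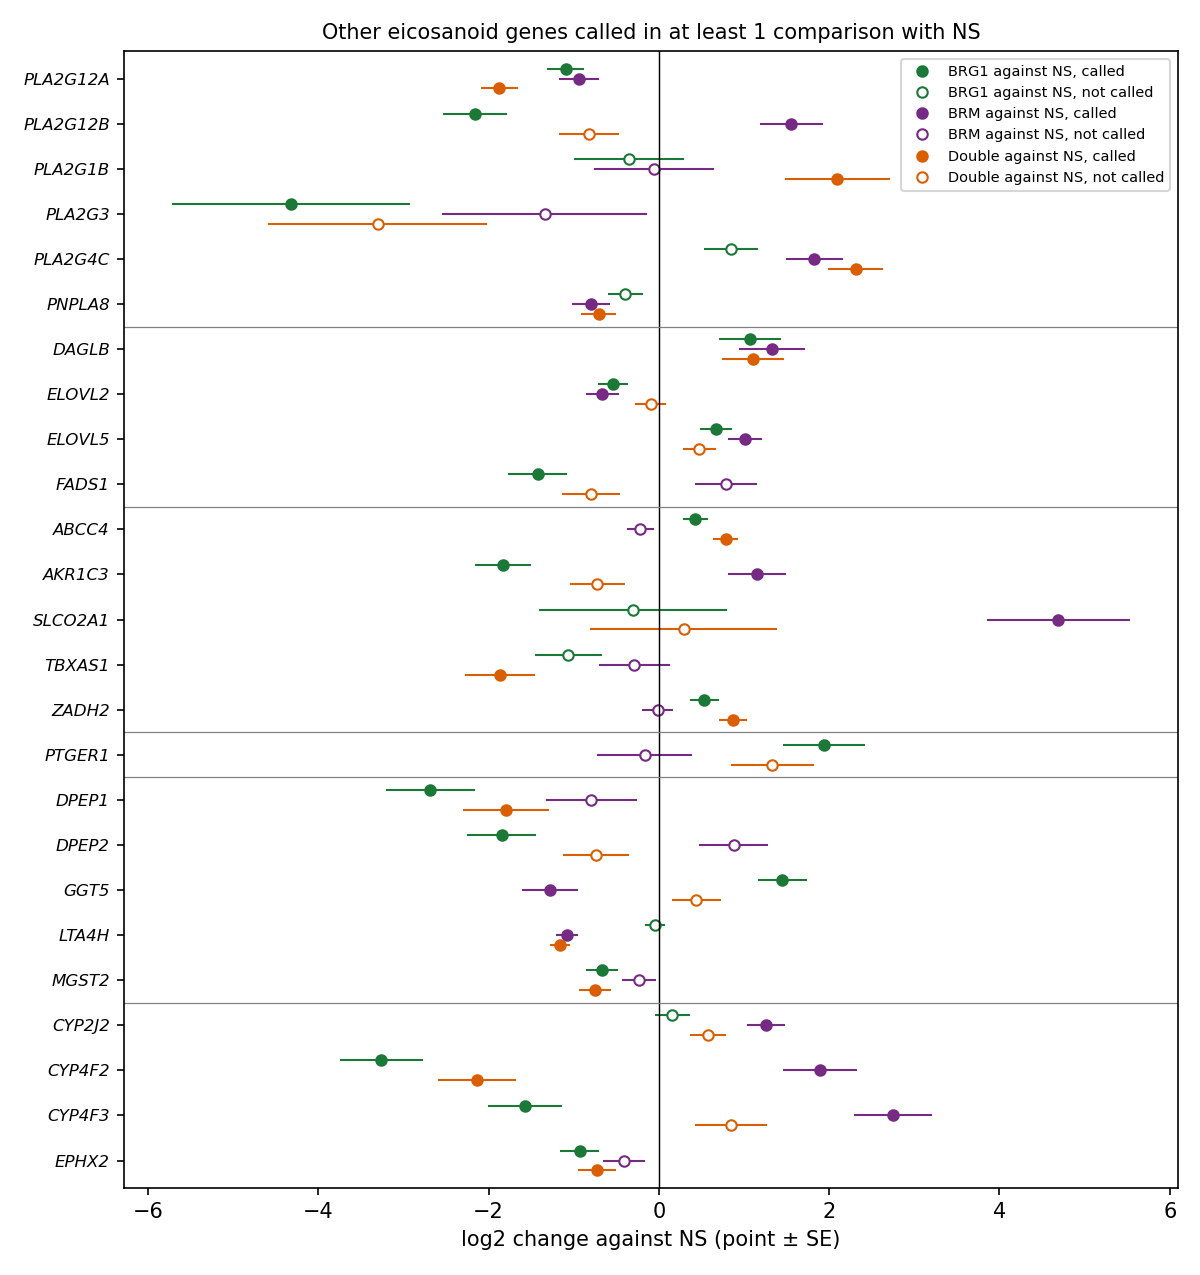
Log2 change ± SE against NS (x axis) of the 25 other eicosanoid genes called in at least 1 comparison with NS (y axis, grouped by role), filled where called. SLCO2A1 is far to the right for BRM, LTA4H lies left for BRM and Double but near 0 for BRG1, and CYP4F2 lies on opposite sides for BRG1 and BRM.

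The genes nearest in pattern to the widest-ranging members were found by the root mean square difference of the 3 log2 changes against NS, over 4 groups. For ALOXE3 they were CCL5 (0.33), OSBPL5 (0.40) and EHD2 (0.56), and for PTGES they were PVRIG2P (0.27), KCNJ4 (0.65) and NPIPB6 (0.77). For PLA2G2A PRSS56 (0.56) and AC122718.1 (1.19) came nearest. Their changes with BRM and with Double were equal (-6.39 for PRSS56 and -6.47 for AC122718.1), which can happen where both groups have no count. Their distances are therefore not compared with those for ALOXE3 or PTGES. PRSS56 and AC122718.1 averaged 0.166 and 0.215 CPM, and PVRIG2P, NPIPB6 and OSBPL5 were also low at 0.418, 0.453 and 0.503 CPM.

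Of the 10 members 4 lie on chromosome 9 and 3 on chromosome 1. The nearest tested protein-coding genes on either side of the members, looked up after the members' values were seen, comprise 18 genes. Many are not adjacent: distances ran from 1.543 kb (HES7 from ALOXE3) to 6129 kb (RGS2 from PTGS2). CAMK2N1, called with BRM and with both hairpins, lay 502 kb from PLA2G2A, and RGS2 was called with both. With BRG1 3 of the 18 were called, all upward (TOR1B, CNTROB and HES7), beside 22.5% of all genes tested. With BRM 2 of the 18 rose and 2 fell, beside 13.9%, and with both hairpins 4 rose and 3 fell, beside 21.6%. HES7, a transcriptional repressor (chromosome 17, 8120590 to 8124092, minus strand), has the end of its transcribed region 1.543 kb from the start of ALOXE3. It had 0.146, 0, 0.0922 and 0.139 CPM in NS and 0.552, 0.569, 1.22 and 1.28 CPM in BRG1 libraries. Its log2 changes were 3.06 ± 0.69 with BRG1, 0.24 ± 0.86 with BRM and 2.34 ± 0.70 with both, beside 5.27, 0.35 and 4.96 for ALOXE3. They rest on 3, 0, 1 and 3 counts in NS libraries. HES7 passed the count filter through the BRG1 and Double groups, where it was high, so its calls are a description and no independent test. CNTROB, the nearest tested gene on the other side of ALOXE3, changed by 0.86 ± 0.15, 0.59 ± 0.16 and 1.0 ± 0.15.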

How the data were processed

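RNA of 15 HepG2 libraries was measured by sequencing. The deposited matrix holds whole-number counts per gene symbol that differ in their totals between libraries. The submitters' processing notes name kallisto, DESeq2 and GRCh38 without role or order. Versions, annotation and strand were not given in the sources used here. Where a count depends on reads shared by paralogs, that step affects it. The authors' deposited comparison tables hold, per the file headers, a mean normalized signal, a log2 fold change, its standard error, the Wald statistic as a test score, and p-values before and after adjustment.

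Counts passing edgeR's filterByExpr on the group (14621 of 35012 genes) were fitted with edgeR 4.0.16 in R 4.3.3 (TMM factors, robust quasi-likelihood F test, two-sided, group means of all 15 libraries in 1 fit), with Benjamini-Hochberg adjustment over the genes tested and a threshold of 0.05. SE is the size of the change divided by the square root of F. CPM use TMM-scaled totals. Ratios with 1 to 3 counts have exact binomial 95% intervals. Locations are from GENCODE v29 and promoter sequences from RefSeq (GRCh38.p14). The fit was tested on simulated data for BRG1 against NS (14274 genes): it called 23% of 100 genes changed by 1 on the log2 scale and 99% of 100 changed by 2, with 7 false calls. Every simulated gene had the same setting for spread, the library sets did not differ, and only genes averaging above 1 CPM were changed. These rates therefore do not carry over to the data here, where the sets differed and some members were lower in NS.

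The members and gene lists were chosen with earlier results of these data known. Named genes were all members, SMARCA4 and SMARCA2, up to 3 called genes of smallest adjusted p per role of the pathway list and comparison with NS, and the 3 nearest genes in pattern for the 3 members of widest range with a mean of at least 1 CPM, of which 1 is not reported here. Neighbouring genes and the alternatives for single pathway genes were added after the data were seen. Alternatives were RLE factors, no filter, DESeq2 1.42.0, the replicate number as a block, the library set as a covariate, each set alone and leaving out each library. Replicate numbers were taken to pair samples where the deviations of every same-numbered pair from their group means correlated above 0.1: NS with BRG1 (0.427 to 0.565), NS with Double (0.179 to 0.454) and BRG1 with BRM (0.104 to 0.532). Libraries of different numbers within a set were not compared, so these correlations cannot tell pairing by number from a shared library set. What same-numbered libraries share is not stated in the labels.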

Additional observations from a re-analysis of the deposited data

Results flagged for a closer look

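In groups of 4 libraries, 4 of 27 gene-by-group sets held a library far from the other 3 by Dixon's criterion. Chance meets it in about 1 in 20 sets of continuous values, a rate that does not apply to these 4, since the criterion is always met where 3 libraries have no count. All 4 rest on 3 counts or fewer: PLA2G4A in BRG1 library 2 (0.103 CPM), PLA2G4A in Double library 1 (0.0547 CPM), PTGS2 in BRG1 library 2 (0.0517 CPM) and HPGD in BRG1 library 4 (0.147 CPM). Each was the library of its group with counts where the other 3 had none.

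The change against NS differed between the library sets for 2 members in the BRG1 and Double comparisons, by a test of the difference in edgeR adjusted over all genes, beside 2.49% and 3.71% of all genes tested. For PLA2G2A the change in libraries 3 and 4 minus that in libraries 1 and 2 was 1.75 on the log2 scale for BRG1 (adjusted p = 0.0168) and 2.27 for Double (0.0122 in edgeR): the fall was smaller in the second set, where NS itself was lower (15.5 and 18.9 CPM against 45.8 and 38.3). For PTGR1 the difference was 1.28 for BRG1 (adjusted p = 0.0168 in edgeR) and 1.35 for Double (0.00506 in edgeR), and NS was again lower in the second set (12.1 and 10.4 CPM against 34.2 and 33.8). Mitochondrial counts moved with the sets as well (4.97 to 8.33% against 1.33 to 3.55%), and their part in these differences was not tested.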

How the results depend on the processing

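Of 1050 values of single members under the alternatives, 934 kept their side of the threshold and their direction or size, 21 lost the call, 23 gained it and 72, none of them called, moved by more than the replicate spread or crossed 0. No called member or named pathway gene changed sign. Counts of calls moved most where the library sets were taken into account. With the replicate number as a block they were 5318 (BRG1), 4153 (BRM), 5200 (Double), 3259 (Double against BRG1), 5302 (Double against BRM) and 633 (departure). With the set as a covariate they were 5720, 4684, 5646, 3728, 5718 and 1061. Within libraries 1 and 2 they were 5921 (BRG1), 4336 (BRM), 4249 (Double against BRG1), 4751 (Double against BRM) and 1938 (departure), and within libraries 3 and 4 they were 3349 (BRM), 5286 (Double) and 530 (departure). DESeq2 called 465 departures. Members called with BRG1 numbered 5 of 7 with the set as a covariate and within libraries 1 and 2, beside 5720 and 5921 of all 14621 genes. DESeq2 also called 5 members with BRG1, and its count over all genes is not given here. Nothing is read from these counts of members. Pathway calls numbered 26 (Double), 14 (Double against BRG1), 25 (Double against BRM) and 5 (departure) with the block, 27, 14, 27 and 5 with the set as a covariate, 23 (BRM), 25 (Double), 14 (Double against BRG1) and 10 (departure) within libraries 1 and 2, 26 (Double) and 1 (departure) within libraries 3 and 4, and 2 departures under DESeq2. The cause was not tested. Correlations in the pairs of groups that did not meet the rule for pairing ran from 0.0733 to 0.527 for NS with BRM. They ran from 0.0578 to 0.659 for BRG1 with Double and from 0.0133 to 0.589 for BRM with Double.

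Leaving out 1 library at a time, the number of genes called ran from 2384 to 3454 (BRG1), 959 to 2063 (BRM, lowest without BRM library 2), 2316 to 3325 (Double), 934 to 1714 (Double against BRG1), 1951 to 2799 (Double against BRM), 38 to 166 (departure) and 7273 to 8442 (sets). Members called ran from 3 to 4 (BRG1, BRM), 1 to 2 (Double against BRG1, departure), 2 to 3 (Double against BRM, sets) and stayed at 3 (Double). Pathway calls ran from 11 to 19 (BRG1), 8 to 14 (BRM), 10 to 13 (Double), 3 to 8 (Double against BRG1), 12 to 17 (Double against BRM) and 0 to 1 (departure). Of 41 calls of named pathway genes, 27 were kept without each single library and 14 were not. HPGD with BRG1 was called without BRG1 library 4 (-4.48), where the BRG1 group has no count and the fitted value depends on the prior count. Low depth limits PLA2G4A, PTGS1, PTGS2 and HPGD, and the BRM group has 3 libraries. RLE factors moved the median of all genes by less than 0.1.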
